A study of Mus musculus with 34 samples.

Results

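The 77 genes described here carry the names of mitochondrial ribosomal proteins. They were followed by microarray while cultures of mouse leukaemia cells lost viability, and later regained it, under a kinase inhibitor or a farnesyltransferase inhibitor. Members were taken by name, as every probeset annotated with a single symbol that begins with Mrpl or Mrps and a number, pseudogenes left out. The probeset of highest mean signal was kept for each symbol, and the set was chosen with earlier results of these data known. This gave 77 of the 19938 genes measured, from 85 probesets. Of the 77, 50 encode proteins of the large subunit, among them Mrps18a and Mrps30, whose names say otherwise, and 26 encode proteins of the small subunit. The remaining gene, Mrps36, carries a ribosomal name but its product is now known as a part of the 2-oxoglutarate dehydrogenase complex.

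The cells were 2 lines of pre-B acute lymphoblastic leukaemia from BCR/ABL transgenic mice, of which 8093 has the inbred C57Bl/6J background and Bin-2 comes from mixed-background mice, so each background is represented by 1 line. Both lines grew with IL-3 on irradiated mouse embryonic fibroblasts, in every group, and the cells on top of that layer and in the medium were collected. Nilotinib, an inhibitor of the ABL tyrosine kinase, was given at 20 nM to 8093 and at 50 nM to Bin-2, and lonafarnib, a farnesyltransferase inhibitor, at 1 µM to 8093 and at 0.25 µM to Bin-2. Each of the 4 courses has arrays from the start on day 0, from a midpoint and from an end. The midpoint fell on day 3, at a viability of 5 to 10%, except in 8093 with lonafarnib, where it fell on day 4 at a viability of 20%. The end, at a viability of about 90% with drug still present, was day 20 for 8093 with nilotinib, day 26 for 8093 with lonafarnib, day 21 for Bin-2 with nilotinib and day 30 for Bin-2 with lonafarnib. There were 34 arrays in 12 groups of 3 separate plates, except both ends of 8093, which had 2. Values are log2 probeset signals, so a difference of 1 is a 2-fold change. A member is said to have risen or fallen where limma's moderated test over all 34 arrays gave an adjusted p below 0.05, adjusted by Benjamini-Hochberg over all 19938 genes. Such arrays do not separate the RNA of living cells from that of dying ones, and fewer cells of a type and less RNA per cell cannot be told apart.

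Mitochondrial ribosomes translate the few proteins encoded in mitochondrial DNA, all of them subunits of the respiratory chain and ATP synthase. Their RNA comes from mitochondrial DNA, while all their proteins are encoded in the nucleus, made in the cytosol and imported. Some of these proteins belong to families shared with bacterial ribosomes, and others are found in mitochondria alone. Of the 77 members, 46 were listed as of a bacterial family and 31 as mitochondria-specific. The 31 include Mrps36, and also Mrps18a and Mrps18b, though Mrps18c of the same S18 family was listed as of a bacterial family.

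Genes of this kind are known to carry sites for NRF1, for the ETS family factor GABP and for YY1 near their start, and the windows from 250 bases before to 50 bases after the start were therefore read in RefSeq (GRCm38.p6), which held 68 of the 77 members. Here 5 stretches of 100 bases directly before the start are shown, since their genes recur in the results: Mrpl32 and Mrps26 moved most between midpoint and end in 8093 with nilotinib, Mrpl3 and Mrps22 fell in both 8093 courses, and Mrpl50 was among the members that moved most with nilotinib. Capitals mark the core GCATGC of NRF1 sites in Mrpl32 and the ETS core CCGGAAG, or its reverse complement CTTCCGG, in Mrps26, Mrpl3 and Mrps22, and the Mrpl50 stretch holds none of the motifs searched. They lie at chr13:14613038-14613137 on the minus strand for Mrpl32, chr2:130563657-130563756 on the plus strand for Mrps26, chr9:105053168-105053267 on the plus strand for Mrpl3, chr9:98601680-98601779 on the minus strand for Mrps22 and chr4:49521084-49521183 on the minus strand for Mrpl50.
Mrpl32: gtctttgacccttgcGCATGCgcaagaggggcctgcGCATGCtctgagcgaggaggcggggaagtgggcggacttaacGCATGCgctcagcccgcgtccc
Mrps26: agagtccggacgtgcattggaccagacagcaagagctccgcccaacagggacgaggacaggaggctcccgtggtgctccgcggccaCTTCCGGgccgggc
Mrpl3: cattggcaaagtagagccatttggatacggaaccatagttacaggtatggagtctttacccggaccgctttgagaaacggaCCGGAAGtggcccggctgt
Mrps22: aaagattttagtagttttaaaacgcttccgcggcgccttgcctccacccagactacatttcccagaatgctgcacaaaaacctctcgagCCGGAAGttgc
Mrpl50: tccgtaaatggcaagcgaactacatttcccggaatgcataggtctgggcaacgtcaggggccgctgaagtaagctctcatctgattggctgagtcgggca
With both strands searched, the ETS core stood in the windows of 24 of the 68 members (35.3%), against 9.12% of all 27025 windows in the table. The YY1 core AAGATGGCG stood in 8 (11.8%, against 1.49% of all windows), among them Mrpl36, Mrpl42 and Mrps27. The NRF1 core GCATGC stood in 9 (13.2%, against 7.94% of all windows). The E-box CACGTG, bound by MYC family factors, stood in 5 (7.35%, against 7.24%). These are matches of letters, and binding was not measured.

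The label of pre-B cells was checked with marker genes. At the end of 8093 with nilotinib 16 of 17 pre-B markers had fallen from the start, and their mean log2 signal was 5.71 and 5.87 in the 2 arrays, against 8.58 to 8.81 at the start, a level not seen in any other group (lowest array elsewhere 8.33). Cd79b, a subunit of the B cell receptor complex, averaged 5.59 there and 9.75 at the start. Myeloid markers moved the other way. The mean over 15 macrophage markers was 8.34 to 9.19 at the midpoint and 7.88 to 9.36 at the end of 8093 with nilotinib, against 4.81 to 4.96 at the start, and that over 20 mast cell and granulocyte markers was 7.38 to 8.08 and 8.57 in both end arrays, against 4.07 to 4.28. The genes of the second list did not move alike. Their change at the end of 8093 with nilotinib minus that with lonafarnib was 6.63 for Kit and 6.25 for Hdc. It was also called positive for Ms4a2 (7.72), Fcer1a (7.15), Mcpt2 (6.88), Mcpt4, Tpsb2, Gata2, Cma1, Mcpt1, Tpsab1 and Cpa3 (4.52). It was not called for Elane (0.04), Mpo (-0.17), Prtn3 (0.62), S100a8 (0.61), S100a9 (-0.12), Mcpt8 (-0.06) and Prg2 (-0.23), and was called negative for Ltf (-0.92). Macrophage markers were also higher at the midpoints of 8093 with lonafarnib (6.06 to 6.98, against 4.91 to 4.97 at the start), Bin-2 with nilotinib (7.45 to 8.82, against 5.46 to 5.88) and Bin-2 with lonafarnib (6.74 to 7.11, against 5.34 to 5.80). They were higher too at the end of Bin-2 with nilotinib (8.04 to 9.57, against 5.46 to 5.88), where mast cell and granulocyte markers also stood above the start (5.92 to 6.14, against 4.43 to 4.50), and less so at the ends of lonafarnib (5.10 to 6.13 in 8093 and 5.93 to 6.46 in Bin-2). Mast cell and granulocyte markers were at 5.17 to 6.00 at the midpoint of 8093 with lonafarnib, against 4.01 to 4.18 at the start. Of 19 fibroblast markers, which bear on the feeder layer, 14 rose at the midpoint of 8093 with nilotinib (mean 6.12 to 6.42, against 5.22 to 5.31 at the start), 2 at that of 8093 with lonafarnib (5.62 to 5.68, against at most 5.34), 6 at that of Bin-2 with nilotinib (5.67 to 5.71, against 5.24 to 5.33) and 7 at that of Bin-2 with lonafarnib (5.72 to 6.04, against 5.31 to 5.45). The spread of signals within an array also varied: the interquartile range averaged 3.03 at the midpoint of 8093 with nilotinib and 3.16 at the midpoint of Bin-2 with lonafarnib, against 3.42 to 3.55 in the other 10 groups. The part of these shifts in the results below was not tested.

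The mean signal of the members was lower at the midpoint than at the start in all 4 courses. The mean log2 signal in 8093 with nilotinib was 7.89 ± 0.08 at the start, 6.88 ± 0.06 at the midpoint (SD, n = 3 each) and 7.19 ± 0.16 at the end (SD, n = 2). In 8093 with lonafarnib it was 8.03 ± 0.09, 7.57 ± 0.09 and 7.72 ± 0.02 in the same order. Bin-2 with nilotinib moved least, with 7.70 ± 0.03, 7.52 ± 0.01 and 7.57 ± 0.04 (SD, n = 3 each), and Bin-2 with lonafarnib had 7.62 ± 0.06, 7.24 ± 0.06 and 7.57 ± 0.02. Neither midpoint and start arrays nor end and start arrays overlapped in any course, though in Bin-2 with lonafarnib the highest end array and the lowest start array both read 7.58.

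**Figure D1:**
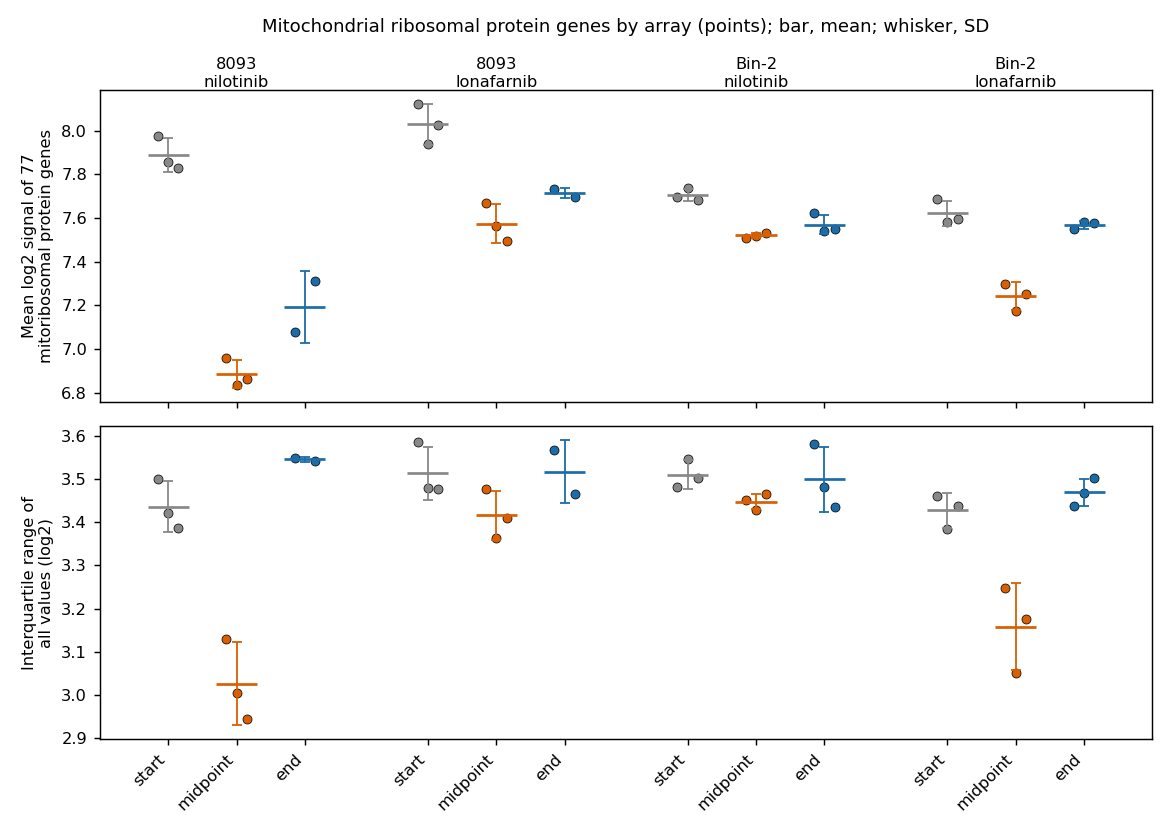
The upper panel plots the mean log2 signal of the 77 members in each array (points) with the group mean (bar) and SD (whisker), by line, drug and stage; the lower panel plots the interquartile range of all values of the same arrays. The 3 midpoint arrays of 8093 with nilotinib have the lowest member means, 6.83 to 6.96, and their interquartile ranges (2.94 to 3.13), with those of the Bin-2 lonafarnib midpoint (3.05 to 3.25), lie below all others.

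At the midpoint of 8093 with nilotinib 70 of the 77 members fell and 1 rose, where 27.5% of all genes fell and 22.6% rose. Of the 6277 genes whose mean signal was at least 7, a level that 56 members reach, 59.3% fell. The median change of the members was -1.03, against 0.03 over all genes and -0.42 over those 6277. In 71 members every midpoint array lay below every start array, which held for 28.7% of all genes. Falls of 2-fold or more were counted in 42 members. These sizes are on the deposited scale, on which the interquartile range averaged 3.03 in the midpoint arrays and 3.44 in the start arrays.

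Large-subunit genes made up 48 of the falls, out of 50 (median change -1.07), and small-subunit genes 21 out of 26 (median -0.90). Mrpl36, the counterpart of the small bacterial protein L36, had log2 signals of 7.11, 7.20 and 7.04 at the midpoint, against 8.89, 9.20 and 9.23 at the start. Mrpl42, a mitochondria-specific protein, had 5.13, 5.21 and 4.41 at the midpoint, against 6.83, 6.87 and 6.73 at the start. Mrpl50, also mitochondria-specific, had 7.21, 7.10 and 6.46 at the midpoint, against 8.71, 8.78 and 8.74 at the start. The midpoint arrays of all 3 genes lay at least 1 log2 unit under their start arrays, and the third midpoint array was low for Mrpl42 and Mrpl50. Their changes were -1.99 ± 0.14 for Mrpl36 (SE, adjusted p = 1.01e-12), -1.89 ± 0.19 for Mrpl42 (adjusted p = 2.01e-09) and -1.82 ± 0.18 for Mrpl50 (adjusted p = 1.99e-09).

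Members at sites of known function were among the falls. Mrpl2 and Mrpl3, which lie close to the peptidyl transferase centre, changed by -1.24 ± 0.13 and -0.86 ± 0.11. Mrpl11 and Mrpl12, proteins of the stalk where elongation factors dock, changed by -1.07 ± 0.12 and -0.68 ± 0.13, and Mrpl12 is also known as a partner of the mitochondrial RNA polymerase. Mrpl58, a peptidyl-tRNA hydrolase built into the large subunit, changed by -0.67 ± 0.13, and Mrpl44, which has a ribonuclease III fold, by -0.96 ± 0.13. In the small subunit Mrps5 (-1.31 ± 0.15), Mrps22 (-1.24 ± 0.10) and Mrps7 (-0.58 ± 0.13) fell, and Mrps2 fell by less, with a change of -0.33 ± 0.09. The 3 members of the S18 family, Mrps18a, Mrps18b and Mrps18c, changed by -0.90 ± 0.13, -1.12 ± 0.10 and -1.18 ± 0.15. Mrps30 (-1.34 ± 0.14) fell, and so did Mrps36 (-0.86 ± 0.17), which is no ribosomal protein.

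Mrps16, a small-subunit protein of a bacterial family, went the other way. Its log2 signals were 8.37, 8.50 and 8.54 at the midpoint, against 7.75, 7.89 and 7.76 at the start, with no overlap, a change of 0.67 ± 0.15 (SE, adjusted p = 3.70e-04). It was the only member of 77 that rose here, and it stayed higher under every alternative run, quantile normalization giving the largest change (1.02). The start level is not the same in both courses of this line: the lonafarnib start arrays read 8.44, 8.30 and 8.70, all above the nilotinib start arrays, a difference of 0.68 ± 0.15 that did not pass the test (adjusted p = 0.0719). The other 6 members did not pass the test at this midpoint. Mrps12, which lies at the decoding centre, changed by -0.03 ± 0.20, Mrps24 by -0.01 ± 0.13, Mrpl14 by -0.19 ± 0.15, Mrps10 by -0.22 ± 0.23, Mrpl33 by -0.31 ± 0.14 and Mrps34 by -0.47 ± 0.21.

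**Figure D2:**
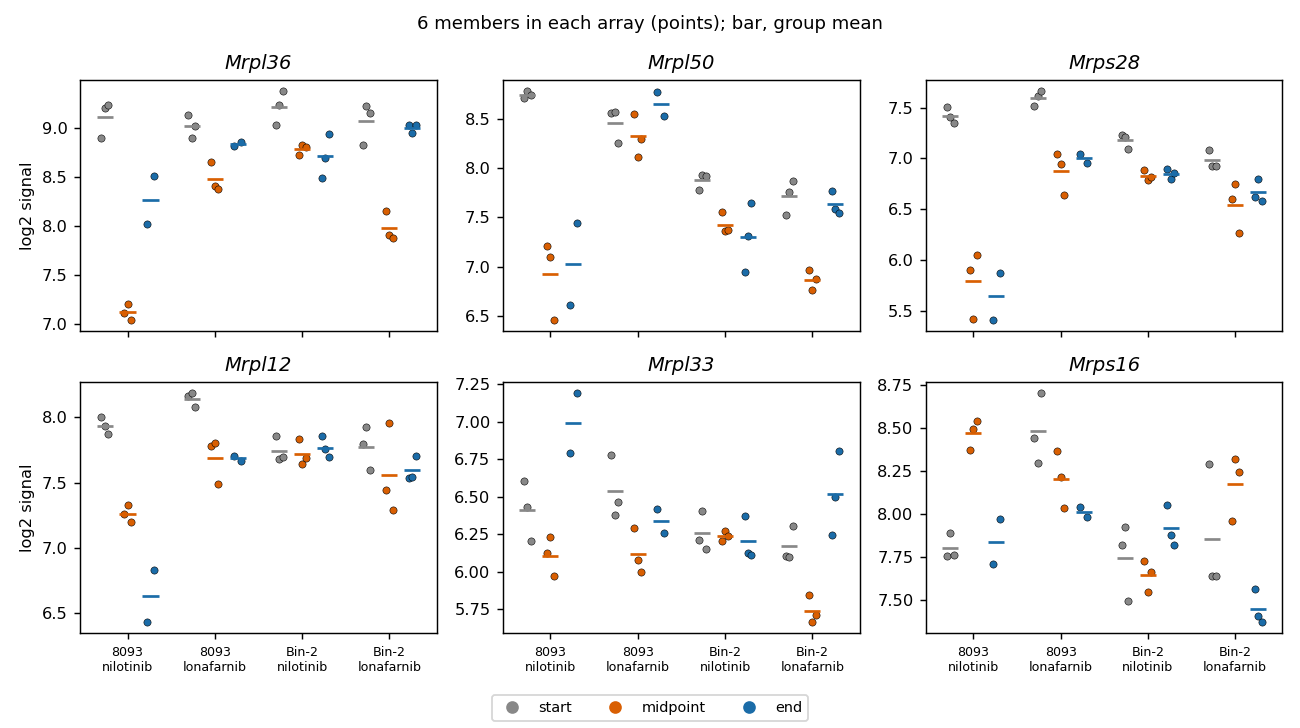
Log2 signal (vertical axes, each panel with its own range) of 6 members in each array (points) with the group mean (bar), by line, drug and stage. Mrpl36, Mrps28 and Mrpl12 have their lowest group means in 8093 with nilotinib, Mrpl33 is highest at the end of that course, and Mrps16 is higher at the midpoint than at the start there.

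At the end of 8093 with nilotinib 55 members remained below the start by the test and 1 lay above it, where 24.9% of all genes fell and 19.6% rose. The median change from the start was -0.66, against -0.15 over all genes and -0.15 over the genes of mean signal of at least 7. All 55 had also fallen at the midpoint, where 70 of the 77 members had. Both changes were taken from the same start arrays, so this overlap is not independent support. Both subunits took part, with 38 of 50 large-subunit and 17 of 26 small-subunit genes. Mrps28, the mitochondrial relative of bacterial S1, had log2 signals of 5.41 and 5.87 at the end, against 7.50, 7.41 and 7.35 at the start. The end arrays lay far below the start arrays and overlapped the midpoint arrays (5.90, 5.42 and 6.05). The change was -1.78 ± 0.15 (SE, adjusted p = 4.69e-11). Mrpl50 changed by -1.71 ± 0.21 and Mrpl21 by -1.64 ± 0.15, with end values of 6.34 and 6.63 for Mrpl21, against 8.14, 8.03 and 8.20 at the start. Mrpl33 rose, with 6.79 and 7.19 at the end, against 6.60, 6.43 and 6.21 at the start (change 0.58 ± 0.15, adjusted p = 0.0027), a call lost without the second end array (0.38, adjusted p = 0.1169). Pre-B markers were low and myeloid markers high in these 2 arrays, as given above, and their part in the members' levels was not tested.

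From midpoint to end of the same course 34 members rose and 5 fell, where 26.7% of all genes rose and 27.8% fell (median of the members 0.31, of all genes -0.15). This split rests on the scaling: quantile normalization gave 17 that rose and 17 that fell, and scaling the arrays to a common median and interquartile range gave 23 and 9, with a member median of 0.06 against 0.09 over all genes. Mrpl32 read 7.53 and 7.42 at the end, against 6.25, 6.04 and 6.11 at the midpoint (change 1.34 ± 0.14, adjusted p = 3.15e-09). Its end arrays came close to the lowest start array, 7.53. Mrps26, a mitochondria-specific small-subunit protein, read 8.59 and 8.46 at the end, against 7.35, 7.02 and 7.19 at the midpoint (change 1.34 ± 0.17, adjusted p = 1.47e-07). Mrpl12 fell further, with 6.43 and 6.83 at the end, against 7.26, 7.33 and 7.20 at the midpoint (change -0.63 ± 0.15, adjusted p = 6.39e-04). Its highest end array was below its lowest midpoint array. Mrps16 fell as well, with 7.71 and 7.97 at the end, against 8.37 to 8.54 at the midpoint (change -0.63 ± 0.16), and Mrpl28 changed by -0.51 ± 0.14. Without the first end array both calls were lost, at -0.50 for Mrps16 (adjusted p = 0.0512) and -0.36 for Mrpl28 (adjusted p = 0.0899).

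In 8093 with lonafarnib the falls were smaller and no member rose. At the midpoint 54 of the 77 members fell, where 6.9% of all genes fell, and all 77 changes were below 0 (median -0.45, against 0.01 over all genes and -0.09 over genes of mean signal of at least 7). None reached 2-fold. Quantile normalization left 30 of the falls called, and without the first start array 21, the direction of every call being kept. Mrps34, a mitochondria-specific small-subunit protein, read 6.91, 6.96 and 6.83 at the midpoint, against 7.82, 7.55 and 8.07 at the start (change -0.91 ± 0.21, adjusted p = 0.0044). Mrpl54 read 7.01, 6.90 and 6.97 at the midpoint, against 7.97, 7.53 and 7.72 at the start (change -0.78 ± 0.18, adjusted p = 0.0038). In both genes the midpoint arrays were tight and the start arrays spread out, without overlap. Mrpl34 changed by -0.74 ± 0.11 (adjusted p = 2.81e-05). Other falls here included Mrps22 (-0.64 ± 0.10), Mrps7 (-0.62 ± 0.13), Mrpl3 (-0.59 ± 0.11) and Mrpl58 (-0.56 ± 0.13), whereas Mrpl50 had a change of -0.14.

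At the end of 8093 with lonafarnib 20 members fell from the start and none rose, where 4.31% of all genes fell (median of the members -0.33, of all genes -0.03). Without the second end array 6 were called. Mrpl54 read 6.81 and 6.73 at the end, against 7.97, 7.53 and 7.72 at the start (change -0.97 ± 0.20, adjusted p = 0.0016), Mrps34 changed by -0.85 ± 0.24 (adjusted p = 0.0210, and from 0.0542 to 0.1286 with either end array or the first or the third start array left out) and Mrpl55, the counterpart of bacterial L31, by -0.73 ± 0.14. Of the 20, 19 had fallen at the midpoint too, a change taken from the same start arrays. From midpoint to end only Mrpl49 (0.84 ± 0.13), Mrpl21 (0.74 ± 0.15), Mrpl16 and Mrpl11 rose and none fell, where 3.95% of all genes rose. Mrpl21 read 8.39 and 8.35 at this end, above all 3 start arrays (7.91 to 8.07), while in the nilotinib course of the same line it stayed low.

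Bin-2 with nilotinib had few called members. At the midpoint only Mrps27, a small-subunit protein with pentatricopeptide repeats, fell, with 6.89, 6.89 and 6.96 at that midpoint, against 7.40, 7.32 and 7.46 at the start (change -0.48 ± 0.12, adjusted p = 0.0236), where 1.6% of all genes fell. The groups did not overlap, but the call was lost in 7 of the alternatives run. The called share of the members, 1.3%, lay near that of all genes. The direction was shared by 71 of 77 members (median -0.17, against 0.01 over all genes), and 20 passed an unadjusted p of 0.05. No share over all genes stands beside the 71 and the 20, so they describe the members only. At the end 7 members fell, namely Mrpl23, Mrpl50, Mrpl36, Mrpl48, Mrps33, Mrpl21 and Mrpl39, where 3.94% of all genes fell. Mrpl23 read 8.80, 9.44 and 9.33 at the end, against 9.77, 9.80 and 10.01 at the start (change -0.67 ± 0.15, adjusted p = 0.0027). The first end array was the lowest, and without it 1 member was called and Mrpl23 was not (-0.47, adjusted p = 0.0561). All 15 macrophage markers and 11 of 20 mast cell and granulocyte markers rose at this end, and their part in the falls was not tested. Limma called no member between midpoint and end, where 1.41% of all genes were called; 3 passed an unadjusted p of 0.05 and array weights gave 2.

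In Bin-2 with lonafarnib many members fell at the midpoint, and none was called against the start at the end. At the midpoint 44 members fell and none rose, where 12% of all genes fell, and 26.3% of genes of mean signal of at least 7 (median of the members -0.37, against -0.01 over all genes and -0.18 over genes of that signal). Quantile normalization left 19 called and scaling to a common interquartile range 22, with 1 rise in each. Mrpl36 read 8.15, 7.90 and 7.88 at the midpoint, against 8.82, 9.23 and 9.15 at the start. The arrays did not overlap, and the change of -1.09 ± 0.14 (SE, adjusted p = 7.36e-06) was the only fall of 2-fold or more at this midpoint. Mrpl23 changed by -0.88 ± 0.15 and Mrpl50 by -0.85 ± 0.18. Mrps16 again had a positive value, 7.96, 8.32 and 8.24 at the midpoint, against 8.29, 7.64 and 7.64 at the start, but the arrays overlapped and the change of 0.32 ± 0.15 did not pass the test. At the end limma called no member against the start (median -0.06), where 8.07% of all genes were called; 8 passed an unadjusted p of 0.05 and 4 of the other settings called 1. From midpoint to end 36 rose and Mrps16 alone fell, where 19.8% of all genes rose and 9.97% fell. Mrpl36 read 9.03, 8.94 and 9.03 at the end (change from the midpoint 1.02 ± 0.14), Mrps17 changed by 0.97 ± 0.13, and Mrps16 read 7.56, 7.40 and 7.37 at the end (change -0.73 ± 0.15, adjusted p = 3.76e-04). Quantile normalization gave 16 rises and 2 falls in this comparison.

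**Figure D3:**
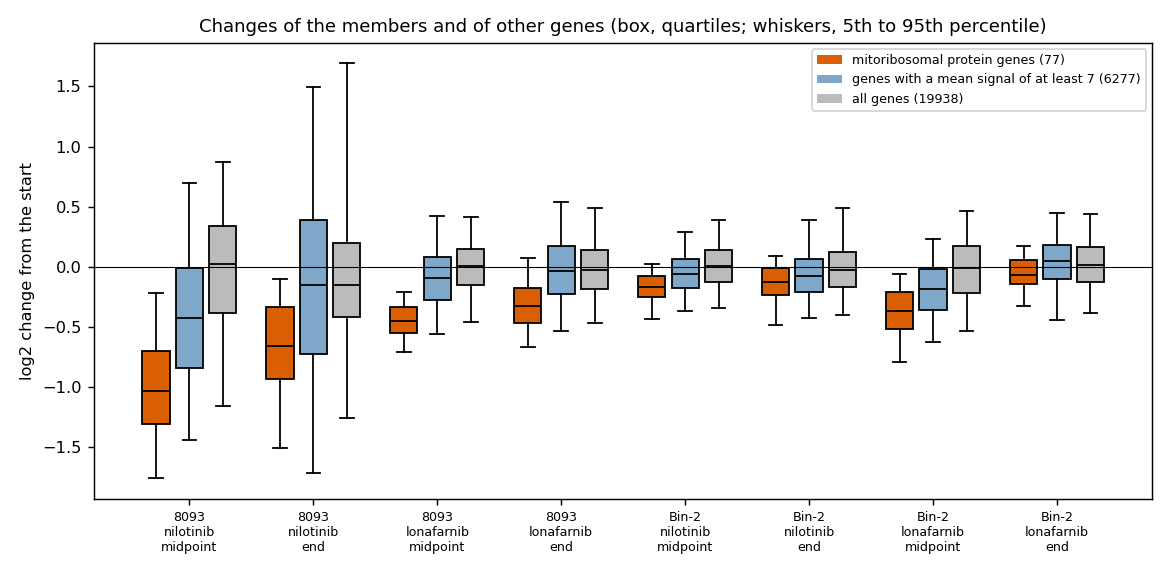
Boxes show the quartiles and whiskers the 5th to 95th percentile of log2 changes from the start for the 77 members, for 6277 genes of mean signal of at least 7 and for all 19938 genes, in 8 comparisons. The member box lies lowest at the midpoint of 8093 with nilotinib (median -1.03), and its median is under that of both other sets in each comparison.

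The lines differed before treatment. At the start Bin-2 had lower signals than 8093 in 46 of 77 members and higher in none, where 10.6% of all genes were lower in Bin-2 (median -0.28, against 0.00 over all genes). Mrpl50 averaged 7.80 in Bin-2 and 8.60 in 8093 (difference -0.80 ± 0.13, adjusted p = 1.79e-05), and Mrpl41 averaged 7.57 in Bin-2 and 8.36 in 8093 (difference -0.79 ± 0.12). Because each line comes from 1 mouse background, line and background cannot be told apart. The start groups of the 2 courses were not called different in any member by limma, as in 0% of all genes, with lonafarnib minus nilotinib at 21 members of unadjusted p below 0.05 in 8093 and at 1 in Bin-2, and array weights gave 7 calls in 8093.

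The response to nilotinib differed between lines, at doses that were not the same. The difference in midpoint change, Bin-2 minus 8093, was called in 63 members, positive in 62 of them, where 18% of all genes had a called positive difference and 8.01% a negative one (median of the members 0.86, against 0.01 over all genes). It was 1.64 ± 0.27 for Mrpl42 and 1.57 ± 0.19 for Mrpl36. The negative one was Mrps16 (-0.77 ± 0.21). At the end it was called in 42 members, positive in 41, where 15.6% of all genes had a called positive difference and 15% a negative one, with Mrps28 (1.45 ± 0.21) and Mrpl12 (1.33 ± 0.20) the largest and Mrpl33 negative (-0.63 ± 0.21), the last not called without the second end array of 8093 (-0.43, adjusted p = 0.1768), the third start array of 8093 or the second start array of Bin-2. For lonafarnib the lines were called different in no member at the midpoint, where 4.2% of all genes were, while 13 members passed an unadjusted p of 0.05 and array weights gave 3. At the end 4 were called different, all positive, where 2.12% of all genes had a called positive difference. The largest were Mrpl55 (0.66 ± 0.19) and Mrpl27 (0.60 ± 0.15), and leaving out 1 array at a time gave 0 to 3 calls. Mrpl55 was not called under quantile normalization (adjusted p = 0.1060), with scaling (adjusted p = 0.0801), with either replicate block (adjusted p = 0.0546 and 0.0673) or without any of 8 single arrays (adjusted p up to 0.2393, at 0.56, without the second 8093 end array). Mrpl27 was not called with the mean of all probesets (0.51, adjusted p = 0.1063) or without the first 8093 end array (adjusted p = 0.0535).

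Within 8093 the midpoint change with nilotinib minus that with lonafarnib was called in 49 members and negative in 48, where 17.6% of all genes had a called negative difference and 9.19% a positive one (median of the members -0.55). Mrpl50 (-1.68 ± 0.26) and Mrps33 (-1.47 ± 0.19) had the largest, and Mrps16 was positive (0.94 ± 0.21, adjusted p = 0.0011). At the end it was called in 33, of which 31 were negative, led by Mrpl21 (-2.02 ± 0.21) and Mrpl50 (-1.90 ± 0.29), where 17.4% of all genes had a called negative difference and 15.7% a positive one. Mrpl33 (0.78 ± 0.22) and Mrps26 (0.71 ± 0.24) were positive, Mrpl33 not being called without the second nilotinib end array (0.58, adjusted p = 0.0671) and Mrps26 not under quantile normalization (0.60, adjusted p = 0.0519), with scaling (0.50, adjusted p = 0.1112) or without any of 6 single arrays (adjusted p up to 0.0893). Within Bin-2 the drugs were called different in 1 member at the midpoint, Mrpl4 (0.53 ± 0.13, adjusted p = 0.0277), where 1.04% of all genes had a called positive difference, and in 3 at the end, Mrps14 (-0.65 ± 0.18), Mrps33 (-0.61 ± 0.19) and Mrpl48 (-0.52 ± 0.15), where 4.86% had a called negative one. Mrpl4 was not called under quantile normalization (0.37, adjusted p = 0.2076), with scaling (0.37, adjusted p = 0.1961), with either replicate block or without any of 7 single arrays. Mrps33 was not called under quantile normalization (adjusted p = 0.0646), with scaling (0.0534), with arrays of that line alone (0.0554), with either replicate block (0.0565 and 0.0599) or without any of 9 single arrays, the change being -0.40 (adjusted p = 0.1943) without the first nilotinib end array. Mrps14 was not called without any of 4 single arrays (adjusted p from 0.0524 to 0.0682). Without the first nilotinib end array no member was called at the Bin-2 end.

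**Figure D4:**
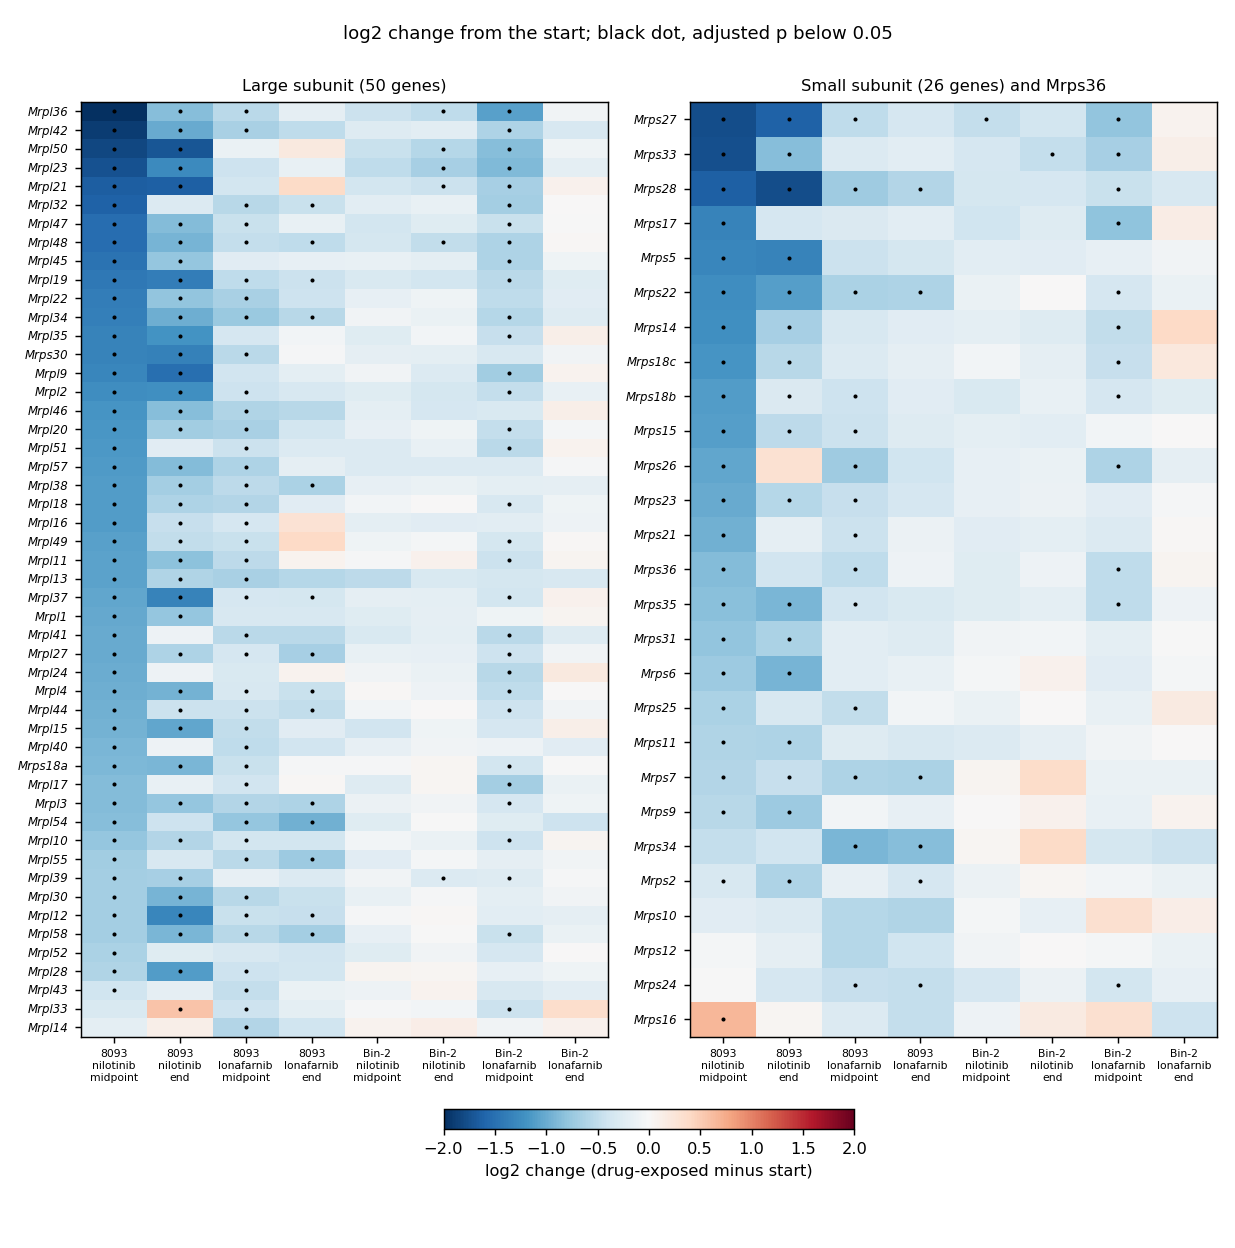
Colour gives the log2 change from the start of each of the 77 members (rows, by subunit) in 8 comparisons (columns), and a black dot marks an adjusted p below 0.05. The first column, the midpoint of 8093 with nilotinib, holds 71 dots, and the last, the end of Bin-2 with lonafarnib, holds none.

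Across the 8 comparisons with the start 74 of 77 members fell in at least 1 and 33 in 4 or more, as did 41.3% and 5.41% of all genes. Mrpl48, a mitochondria-specific large-subunit protein, fell in 6, with changes of -1.52 and -0.92 at midpoint and end of 8093 with nilotinib, -0.48 and -0.52 in 8093 with lonafarnib, -0.49 at the end of Bin-2 with nilotinib and -0.62 at the midpoint of Bin-2 with lonafarnib. Mrps10, Mrps12 and Mrps16 fell in none. At the 3 midpoints with many calls, both of 8093 and that of Bin-2 with lonafarnib, 30 members fell each time, as did 2.88% of all genes. Over the 77 genes the changes at the midpoint of 8093 with nilotinib and of Bin-2 with lonafarnib had a Pearson correlation of 0.75 (0.60 over all 19938 genes). The arrays of these 2 groups had the narrowest range of signals, and the part of that range in the correlation was not tested. Between the midpoint of 8093 with nilotinib and the end of Bin-2 with nilotinib the correlation was 0.70 (0.65 over all genes). With the midpoint of Bin-2 with nilotinib it was 0.56 (0.61 over all genes). The interquartile ranges of that end and midpoint of Bin-2 averaged 3.50 and 3.45. Between the midpoint of 8093 with nilotinib and that of 8093 with lonafarnib the correlation was 0.06 (0.64 over all genes). Genes are not independent replicates, and these values describe the arrays.

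**Figure D5:**
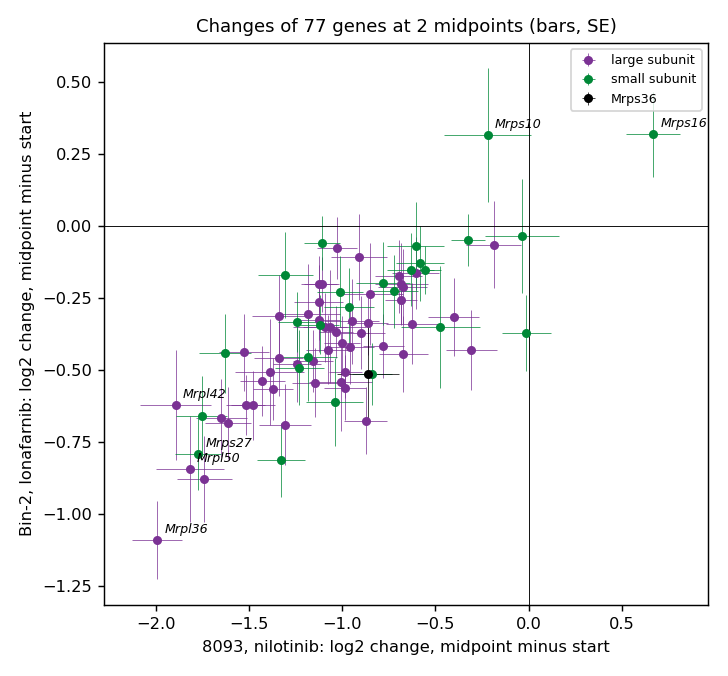
Each point is a member, with its log2 change at the midpoint of 8093 with nilotinib (horizontal) and of Bin-2 with lonafarnib (vertical), with SE bars. Mrpl36 lies lowest on both axes, at -1.99 and -1.09, and Mrps16 is highest on both, at 0.67 and 0.32.

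The other genes of mitochondrial translation, listed by role, moved in the same direction as the members at the midpoint of 8093 with nilotinib. Of the remaining mitoribosomal proteins 4 of 5 fell, led by Ptcd3 (-1.56) and with Dap3 at -0.86. All 20 translation factors and mRNA partners fell, among them Tufm, the mitochondrial elongation factor Tu (-1.14 ± 0.11), and Slirp, which stabilises mitochondrial mRNAs with Lrpprc (-1.84 ± 0.14). In the lists of assembly and rRNA modification 18 of 23 fell, with Fastkd2 at -1.78 ± 0.13, and of mitochondrial tRNA synthetases 15 of 16, with Yars2 at -1.81 ± 0.16. Of 11 genes for mitochondrial DNA upkeep and transcription 9 fell, with Tfam, which packages mitochondrial DNA, at -1.56 ± 0.18. None in these 5 lists rose there, where 22.6% of all genes rose and 27.5% fell. Of genes of mean signal of at least 7, 59.3% fell. The median changes of the 5 lists lay between -0.73 and -0.96, against -1.03 for the members.

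In 3 other comparisons smaller shares of these lists were called. At the midpoint of 8093 with lonafarnib, where 6.9% of all genes fell, 12 of 20 translation factors fell (median -0.40), but 4 of 23 assembly genes (median -0.27), 4 of 16 tRNA synthetases (median -0.24) and 2 of 11 genes for mitochondrial DNA (median -0.21), against 54 of 77 members (median -0.45). At the midpoint of Bin-2 with lonafarnib, where 12% of all genes fell, the counts were 10 of 20, 13 of 23 (median -0.43), 5 of 16 and 2 of 11, against 44 of 77 members (median -0.37). At the end of 8093 with nilotinib, where 24.9% of all genes fell and 19.6% rose, they were 14 of 20, 14 of 23, 12 of 16 and 8 of 11, with 2 rises among assembly genes, Mterf3 (0.40) and Mettl15 (0.64), and 1 for Top1mt (0.74).

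Of 11 regulators of such genes 6 fell and 1 rose at the midpoint of 8093 with nilotinib (median change -0.53, against 0.03 over all genes), where 27.5% of all genes fell and 22.6% rose. At its end 7 fell and none rose, where 24.9% of all genes fell, and in each of the other 6 comparisons with the start 1 or 2 were called. Gabpb1, the partner subunit of Gabpa in GABP, averaged 7.94 at that midpoint and 8.86 at the start (change -0.92 ± 0.09, adjusted p = 1.24e-09) and was still lower at the end (-0.46 ± 0.10), and it fell at the end of Bin-2 with nilotinib (-0.40 ± 0.09) and at the midpoint of Bin-2 with lonafarnib (-0.38 ± 0.09). Pprc1, a coactivator of the PGC-1 family, changed by -0.96 ± 0.10 at the midpoint and -0.86 ± 0.12 at the end of 8093 with nilotinib, rose at the end of 8093 with lonafarnib (0.49 ± 0.12, adjusted p = 0.0067) and fell at that of Bin-2 with lonafarnib (-0.37 ± 0.10, adjusted p = 0.0205). Max, the dimer partner of MYC, changed by -0.85 ± 0.11 at the midpoint and -0.30 ± 0.12 at the end of 8093 with nilotinib. Ppargc1b, also of the PGC-1 family, fell at that end (change -1.002 ± 0.153, adjusted p = 2.25e-06), while its midpoint change of 0.32 ± 0.14 did not pass the test (adjusted p = 0.0532). The midpoint difference between lines with nilotinib, Bin-2 minus 8093, was called positive for Max (0.90 ± 0.15), Pprc1 (0.66 ± 0.15), Gabpb1 (0.66 ± 0.13), Gabpa (0.49 ± 0.16) and Nrf1 (0.48 ± 0.15) and negative for Ppargc1a (-1.51 ± 0.29) and Ppargc1b (-0.60 ± 0.19).

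Gabpa, the ETS subunit of GABP, changed by -0.62 ± 0.11 (adjusted p = 4.28e-05) and Nrf1 by -0.53 ± 0.11 (adjusted p = 1.47e-04) at the midpoint of 8093 with nilotinib, and neither was called at the other 3 midpoints, and Nrf1 was still lower at the end of 8093 with nilotinib (change -0.35 ± 0.12, adjusted p = 0.0183). Ppargc1a, a coactivator of mitochondrial biogenesis, averaged 7.40 at that midpoint and 6.05 at the start (change 1.36 ± 0.20), and 8.32 at the midpoint and 6.03 at the start of 8093 with lonafarnib (change 2.28 ± 0.20), but fell at the end of 8093 with nilotinib (change -1.63 ± 0.23). Myc fell at that end, averaging 9.03 there and 10.16 at the start (change -1.13 ± 0.17), and was called in no other comparison with the start. Mycn fell at the midpoint of 8093 with nilotinib (change -0.70 ± 0.21) and at both stages of Bin-2 with nilotinib, with changes of -1.31 ± 0.21 at the midpoint and -1.38 ± 0.21 at the end. Yy1 and Esrra were called in none of the 8.

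At the midpoint of 8093 with nilotinib the median change was -1.03 in the 24 members with an ETS core in their window and -1.03 in the 44 without. It was -1.19 in the 8 with a YY1 core and -1.02 in the 60 without, -0.91 in the 9 with the NRF1 core and -1.03 in the 59 without, and -1.18 in the 5 with the E-box and -1.01 in the 63 without. No test was run on these medians.

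A second probeset was present for 8 members. For Mrpl23 and Mrps33 both gave nearly the same changes, -1.74 and -1.74 for Mrpl23 and -1.75 and -1.61 for Mrps33 at the midpoint of 8093 with nilotinib. They disagreed for Mrpl47, with -1.53 on the brighter and -0.07 on the dimmer probeset, the dimmer one averaging 4.68, and for Mrpl41, with -1.01 and -0.47. Taking the mean of all probesets left 71 members called in that comparison.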

How the data were processed

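RNA was hybridised to Mouse Gene ST arrays as biotin-labelled cRNA, per the labels' protocols, and the authors deposited 1 table of log2 signals for 35557 probesets in 34 arrays. Partek is named in the submitters' processing notes, with no version, and the normalization method is not given in the sources used here. The deposited log2 values were used unchanged. Of the probesets 21789 had 1 gene symbol in the platform annotation, 1621 several and 12147 were not listed; the brightest probeset per symbol gave 19938 genes. A probeset annotated to Mrpl53 and another gene was left out.

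A single limma 3.58.1 model in R 4.3.3 was fitted to all 34 arrays with 1 mean per group (22 residual and 6.6986 prior degrees of freedom), in 23 comparisons, with two-sided p-values. Responses were compared between drugs and lines as differences of changes. Counts by unadjusted p, by direction alone or by 2-fold size are given without a share over all genes and describe the members only. Named are up to 3 called members each way against the start (2 in other comparisons), members called against the majority, the extremes of the range of group means, 19 listed members, the leading called genes of each companion list and all regulators. Others, such as Mrpl48 and the genes of small counts or second probesets, were chosen after their values were seen. Replicates were separate plates, so p-values measure the spread between plates of 1 line. The number of arrays limits the precision.

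The members and lists were chosen with earlier results of these data known. Alternatives were quantile normalization, scaling to a common interquartile range, another prior, a filter on dim genes, the mean of all probesets, array weights, single-line fits, replicate blocks and leaving out each array. A check on pairing did not settle it: deviations of arrays with the same title number correlated at -0.18 to 0.16 over 32 pairs, and 2 were over 0.1. By description letter 4 were over 0.1. The computation was tested on simulated data for the midpoint and end of 8093 with nilotinib and the midpoint of Bin-2 with lonafarnib. A simulated log2 change of 0.5 was recovered in 23.9 to 37.3% of changed genes, and one of 1 in 89.6 to 94%. Of the 19938 genes 7 or 12 were called falsely. Most changes of 0.5 were missed in those data, where 67 genes had a change of 0.5, 67 one of 1 and 66 one of 2. Far more genes were called at the measured midpoint of 8093 with nilotinib, where 5485 fell. The share of changes missed in the measured comparisons was not tested, and a member not called may still have changed.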

Additional observations from a re-analysis of the deposited data

Results flagged for a closer look

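Differences of changes between drugs or lines were tested directly by limma, and those with called members are listed here. In 8093 the change with nilotinib minus that with lonafarnib was called in 49 members at the midpoint and in 33 at the end. Of all genes 17.6% had a called negative difference and 9.19% a positive one at the midpoint, and 17.4% and 15.7% at the end. In Bin-2 the same difference was called positive in 1 member (1.3%) at the midpoint, where 1.04% of all genes had a called positive difference. At the end it was called negative in 3 (3.9%), where 4.86% of all genes had a called negative one. Both counts lie near the share over all genes. Between the lines, Bin-2 minus 8093, the change with nilotinib was called different in 63 members at the midpoint and in 42 at the end. Of all genes 18% had a called positive difference and 8.01% a negative one at the midpoint, and 15.6% and 15% at the end. The change with lonafarnib was called different in 4 (5.19%) at the end, all positive, where 2.12% of all genes had a called positive difference. Doses and days differed between the lines.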

How the results depend on the processing

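Of the 51 member changes recomputed under the alternatives none changed direction: 766 values kept their side of the threshold and 82 lost the call, 61 of them when an array was left out. The other named members were not recomputed singly. Counts of called members moved by over 1.5 times as follows, the cause not being tested beyond the alternatives' construction. At the midpoint of 8093 with lonafarnib 54 became 30 under quantile normalization, 35 with arrays of that line alone and 21 to 51 with an array left out. At its end 20 became 12 with that line alone, 33 with array weights and 6 to 16 with an array left out. Between its midpoint and end 4 became 10 with a trended robust prior, 12 without dim genes and 12 with array weights. Between the start groups of 8093, 0 became 1 with the trended prior, 7 with array weights and 0 to 2 with an array left out.

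For Bin-2 with lonafarnib, 44 at the midpoint became 19 under quantile normalization, 22 with scaling and 26 to 41 with an array left out. At the end 0 became 1 each with the trended prior, without dim genes, with that line alone and with array weights, and 0 to 1 with an array left out. Between midpoint and end 37 became 18 under quantile normalization. For Bin-2 with nilotinib, 1 at the midpoint became 0 under quantile normalization, 4 with the trended prior, 5 without dim genes, 2 with that line alone, 13 with array weights and 0 to 1 with an array left out. At the end 7 became 11 with scaling, 14 with array weights and 1 to 9 with an array left out. Between midpoint and end 0 became 2 with array weights.

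The difference between drugs in Bin-2 at the midpoint, 1, became 0 under quantile normalization, 0 with scaling, 2 with the trended prior, 2 without dim genes, 5 with array weights and 0 to 2 with an array left out. At the end 3 became 5 without dim genes and 0 to 5 with an array left out. The difference between lines with lonafarnib at the midpoint, 0, became 1 under quantile normalization, 2 with scaling, 3 with array weights and 0 to 4 with an array left out. At the end 4 became 1 under quantile normalization, 1 with scaling, 7 with the trended prior, 9 without dim genes, 10 with array weights and 0 to 3 with an array left out.

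With the replicate block, by title number or description letter, the 71 calls at the midpoint of 8093 with nilotinib became 72 and 71. The block gave 0 by title number for Bin-2 with nilotinib at the midpoint, 4 and 4 at its end, 0 and 0 for the difference between drugs in Bin-2 at the midpoint, and 2 and 1 for the difference between lines with lonafarnib at the end. It moved no other count by over 1.5 times. Whether the numbers or letters pair the arrays is not known.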
